A study of Mus musculus with 28 samples.

Results

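Accessible chromatin regions that both genotypes shared but that ranked much lower in db/db Müller cells are described here. The measurement was omni-ATAC-seq, which reads open chromatin through the sites where a transposase can insert adapters, in Müller cells from 6-month-old mice. Db/db mice carry a mutated leptin receptor gene, Lepr, on both alleles and develop diabetes. The labels call the controls WT, while the study's methods state that wild type and db/+ mice, which do not become diabetic, served as controls, that the mice came from 2 suppliers and that both sexes were used. Müller cells were taken magnetically as the CD29+ fraction that remained after CD11b+ microglia and CD31+ endothelial cells had been removed, a fraction that may hold some astrocytes and photoreceptors. The data analysed here were 1 list of peaks per genotype, attached to replicate 1 of 2, so every value below stands for 1 list. No replicate check was made and p-values are not given.

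Of 42625 pairs of regions on chromosomes 1 to 19 that overlapped exactly 1 region of the other list, 1306 were lower in db/db by 20 percentile points or more, which is 3.06% of the pairs. These falling pairs were chosen by their signal, the fold enrichment of a peak, ranked as a percentile over all shared regions of each list, so their fall in rank is a description and not a result. The pairs just inside the limit lay at Nme3, Gm33586 and Alk, with changes of -20.02, -20.02 and -20.004 points, and those just outside lay at Gm5436, Gas2l3 and Gm15515, each at -19.99 points. Ranked over all regions of each list instead, which brings in the db/db-only regions, 357 pairs were lower by 20 points or more, all among the 1306 (27.3% of them), and the median change of the 1306 was -12.7 points against 8.56 over all pairs. A change in rank says how a region stood among the shared regions of its own list. It says nothing of the absolute number of reads, and the depth of the libraries is unknown.

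An accessible region is a stretch of DNA free enough of nucleosomes for transcription factors to bind, and the set of open promoters and enhancers is characteristic of a cell type. In the retina, CRX and OTX2 are homeodomain factors that bind GGATTA and switch on the genes of photoreceptors, with NRL and ESRRB acting in rods. Müller cells are the main glia of the retina, where SOX9, LHX2, NFI factors and the glucocorticoid receptor are active. In a bulk preparation, fewer cells of a type and less open chromatin per cell cannot be told apart.

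Sequences are shown for promoters that fell in rank and held at least 1 of the 3 strings that were more frequent in falling pairs. They come from RefSeq (GRCm38.p6), read 5′ to 3′ on the strand of the gene. Each covers the part of the RefSeq promoter window, 250 bases before to 50 after the gene start, that lay in the control region and in no annotated exon of GENCODE M21. Capitals mark the string GGATTA of CRX and OTX factors, or TAATCC where it lies on the other strand. Gucy2e encodes the guanylate cyclase that restores cGMP in photoreceptors, and Casz1 a zinc finger factor of retinal progenitors and rods.
Gucy2e, chr11:69237037-69237272, minus strand: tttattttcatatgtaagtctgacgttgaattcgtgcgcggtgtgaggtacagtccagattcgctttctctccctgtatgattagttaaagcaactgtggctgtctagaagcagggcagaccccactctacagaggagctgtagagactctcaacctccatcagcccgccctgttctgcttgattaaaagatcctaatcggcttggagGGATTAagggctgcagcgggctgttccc
Casz1, chr4:148889097-148889380, plus strand: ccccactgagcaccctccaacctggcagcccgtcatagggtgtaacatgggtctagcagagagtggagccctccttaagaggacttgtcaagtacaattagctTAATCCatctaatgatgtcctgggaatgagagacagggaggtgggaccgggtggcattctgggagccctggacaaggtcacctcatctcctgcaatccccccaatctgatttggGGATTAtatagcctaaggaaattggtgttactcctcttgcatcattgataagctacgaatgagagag
In Casz1 only the first of the 2 marked strings lay within 100 bp of the summit. Mpp4, a scaffold protein of photoreceptor terminals, Ppef2, a phosphatase of photoreceptors, and Lrit1, a membrane protein of photoreceptors, were chosen after their values were seen.
Mpp4, chr1:59161637-59161855, minus strand: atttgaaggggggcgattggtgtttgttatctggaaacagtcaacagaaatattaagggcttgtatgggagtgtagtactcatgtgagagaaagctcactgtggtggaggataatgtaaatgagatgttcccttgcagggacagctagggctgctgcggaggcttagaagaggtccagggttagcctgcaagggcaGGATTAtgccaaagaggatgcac
Ppef2, chr5:92256279-92256528, minus strand: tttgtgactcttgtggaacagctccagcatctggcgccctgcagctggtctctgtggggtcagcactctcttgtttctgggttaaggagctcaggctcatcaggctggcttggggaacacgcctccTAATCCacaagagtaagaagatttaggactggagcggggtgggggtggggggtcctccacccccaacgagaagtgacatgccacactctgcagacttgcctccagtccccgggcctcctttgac
Lrit1, chr14:37054580-37054829, plus strand: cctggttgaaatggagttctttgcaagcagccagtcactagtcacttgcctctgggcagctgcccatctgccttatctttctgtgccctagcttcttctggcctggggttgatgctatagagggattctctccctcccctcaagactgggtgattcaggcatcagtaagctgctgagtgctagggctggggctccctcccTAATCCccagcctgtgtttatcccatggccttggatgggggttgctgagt
The remaining promoters carry strings of other factors. In Bsn, which encodes the presynaptic scaffold bassoon, capitals mark GCGCATGC of NRF1 on either strand, of which the first lies over 100 bp from the summit, and an ETS string on the other strand, ttccgg, is not marked. In Dusp14, a phosphatase of MAP kinase signalling, they mark CCGGAA of ETS factors.
Bsn, chr9:108190385-108190530, minus strand: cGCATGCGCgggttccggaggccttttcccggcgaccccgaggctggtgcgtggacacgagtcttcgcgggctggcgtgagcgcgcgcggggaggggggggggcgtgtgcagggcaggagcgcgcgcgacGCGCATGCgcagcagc
Dusp14, chr11:84068358-84068480, minus strand: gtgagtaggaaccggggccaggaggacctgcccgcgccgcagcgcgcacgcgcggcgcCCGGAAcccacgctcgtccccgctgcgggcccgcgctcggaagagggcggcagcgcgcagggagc

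The falling pairs ranked from 21.3 to 99.3 in the control list, with a median of 60.3, and from 0.753 to 76.7 in the db/db list, with a median of 28.6. Their median signal was 12.2 in the control and 8.04 in the db/db list, against 10.9 and 10.6 over all pairs. Over all pairs the median change was 0.29 points and the SD 10.6 points. Pairs that changed strongly were more often lower than higher. By 40 points or more, 220 pairs (0.516%) were lower and 58 (0.136%) higher, and by 60 points or more 42 were lower and none higher. At the limit of 20 points the balance was the other way, with 1416 pairs (3.32%) higher.

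**Figure D1:**
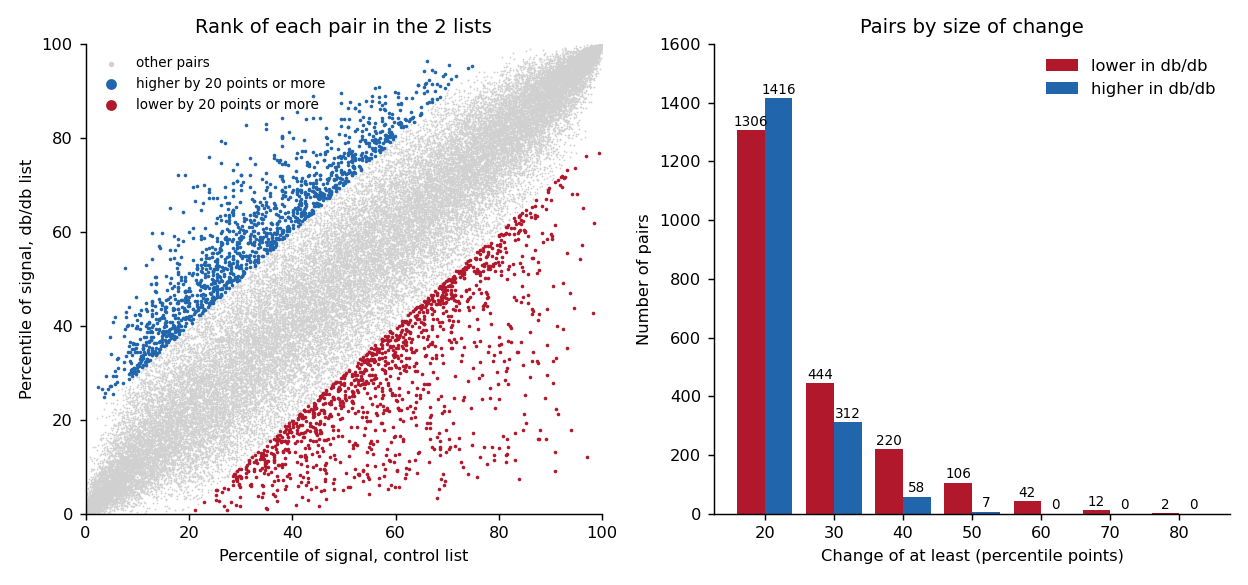
The left plot shows the percentile of the signal in the control list (x axis) and the db/db list (y axis) for 42625 pairs, with the 1306 falling pairs in red, the 1416 rising pairs in blue and the others in grey, and the right plot the number of pairs that changed by at least the points on the x axis. The colours follow from the rule, and beyond 40 points the red bars (220 pairs) exceed the blue ones (58 pairs).

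The falling pairs lay mostly at middle ranks. The SD of the change was 3.41 points among pairs with a mean rank under 10, 14.8 points between 40 and 50, and 2.91 points above 90. No pair in the lowest or the highest of these classes fell by 20 points, while 6.70% did between 40 and 50 and 0.371% between 80 and 90, so features were compared at equal mean rank. The interval of such a difference covers counting error only.

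The falling pairs were narrower in db/db. Their median width was 655 bp in the control and 578 bp in the db/db list, and 63.6% were narrower in db/db, against 45.1% of all pairs. Among the 220 pairs that fell by 40 points or more, the widths were 551.5 and 416.5 bp and 90.0% were narrower. Width is measured on the same peak as the signal and is not independent of the rule. The summits lay 11 bp apart in the median, against 8 bp over all pairs, so both lists placed the centre of these regions at nearly the same base. Falling pairs were spread over all 19 chromosomes, from 2.28% of the pairs on chromosome 18 (95% Wilson interval 1.64% to 3.17%, counting error only) to 3.98% on chromosome 19 (3.05% to 5.18%), and these intervals overlap.

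The −log10 p of the peaks gave another rank from the same rows, which is no independent measurement. By it 859 falling pairs were again lower by 20 points or more, which is 65.8% of the 1306 and 66.1% of the 1299 pairs it called, and all 1306 were below 0. Among the 20 largest falls all 20 passed under both ranks.

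The largest falls took strong regions of the control list to the weak end of the db/db list. The 20 largest began between percentiles 75.9 and 97.0 and ended between 7.32 and 22.3. Of them, 4 lay within 1 kb of a transcription start site (TSS), 10 in introns and 6 between genes. The first, chr5:107574521-107575173 in an intron of Glmn with Rpap2 as the nearest TSS, had a signal of 23.2 in the control and 6.04 in the db/db list and went from percentile 97.0 to 12.1. The second, chr9:83761039-83761684, lay 44762 bp downstream of the TSS of Elovl4, which makes the very long fatty acids of photoreceptor membranes, and went from 90.8 to 9.06. The third, chr12:79242747-79243385 in an intron of Zfyve26 and 1320 bp past its TSS, went from 90.8 to 13.2. The fourth lay nearest to the small RNA gene Gm24869 and changed by -76.6 points. Regions of Acer2, an alkaline ceramidase, Igf2bp2, an RNA-binding protein, and Ankrd44 followed, with changes of -76.0, -73.1 and -71.8 points.

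Among promoters of protein-coding genes, the largest falls included genes of several kinds. The promoter of Mff, a receptor for mitochondrial fission, went from percentile 88.0 to 17.9. That of Zfyve27, which acts in neurite formation, went from 91.1 to 22.3. The promoter of Mef2c, a MADS box factor with a role in photoreceptor gene expression, at chr13:83573359-83573711 with its summit 63 bp before the TSS, went from 79.0 to 11.5. The promoter of Rdh12, a retinol dehydrogenase of photoreceptors, at chr12:79208656-79209129 with its summit 33 bp before the TSS, went from 77.6 to 10.5, with a signal of 15.3 in the control and 5.80 in the db/db list. Ccdc162, Pcbp2, Slc22a29, Rims2, Myo1g and Zc3h3 completed the 10 promoters, with changes from -66.0 to -55.5 points. Rims2 encodes a scaffold of the presynaptic active zone, and Pcbp2 an RNA-binding protein of all cells.

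Few genes held several falling pairs, since the 1306 pairs went to 1259 genes by the nearest TSS. Esrrb, a nuclear receptor that rods need to survive, had the most, with 4 of 6 pairs. Its pairs fell from 85.3 to 63.6, from 54.7 to 27.8 (the promoter), from 53.0 to 8.23 and from 68.7 to 35.3, while the other 2 rose by 3.74 and 11.7 points. Rrp1b, a nucleolar protein, had 3 of 3 pairs and Gse1, a transcriptional coregulator, 3 of 21. The genes with 2 included Rps6ka2, Plekha8, Zfyve27, Dusp14, Sdc2, Tmcc1 and Trak1. Most falling pairs stood alone. A further pair lay within 10 kb of 490 falling pairs, its median change was 1.61 points, and 16 of these neighbours (3.27%) had fallen by 20 points too, against 2.39% beside other pairs of equal mean rank (difference 0.874 points, -0.411 to 2.87). Beside falls of 40 points or more it was 5 of 69 (7.25%), against 2.41% (difference 4.83 points, 0.703 to 13.5). Beside rising pairs the share was 8.34% against the 3.27% of falling pairs (difference -5.08 points, -8.23 to -2.12) and 8.20% against the 7.25% of large falls (difference -0.951 points, -6.25 to 8.01).

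Falling pairs lay near a TSS slightly more often than other pairs of equal mean rank and much more often than rising pairs. Within 1 kb of an annotated TSS were 381 of 1306 (29.2%), against 26.1% of other pairs (difference 3.10 points, 95% interval 0.634 to 5.68) and 15.8% of the 1416 rising pairs (difference 13.4 points, 10.2 to 16.5). The excess over other pairs was not seen among falls of 40 points or more, at 49 of 220 (22.3%) against 25.6% (difference -3.36 points, -8.40 to 2.62). It also depended on the settings, being -0.898 points at a limit of 30 points, 15.4 points with the rank of −log10 p and -4.54 points without matching on rank. Against pairs that changed by less than 5 points it was 1.57 points, with an interval that includes 0 (-1.01 to 4.26). A lower rank near a TSS was also seen over all 42625 pairs, whose median change was -0.634 points within 1 kb and 1.15 points farther away. At mean ranks of 60 to 70 these medians were -2.68 and 1.71 points. Whether falling pairs differ beyond this shift of promoters was not tested. The median distance of falling pairs to a TSS was 6237.5 bp, against 9710 bp for rising pairs. In introns were 495 pairs (37.9%) and between genes 390 (29.9%), neither detectably different from other pairs. Against rising pairs both were less frequent, with differences of -5.35 points (-9.03 to -1.64) and -6.83 points (-10.4 to -3.27). A long noncoding RNA gene was nearest to 194 falling pairs (14.9%), against 18.2% of other pairs (difference -3.31 points, -5.20 to -1.22), and to 27 of the 220 large falls (12.3%), against 18.4% (difference -6.17 points, -9.92 to -1.14).

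Near falling pairs, control-only regions were more frequent than near other pairs. A region found in the control list only lay within 10 kb of 64 falling pairs (4.90%), against 2.71% of other pairs (difference 2.19 points, 1.12 to 3.51). Within 50 kb it was 229 pairs (17.5%), against 11.9% (difference 5.64 points, 3.63 to 7.84). The share was higher among large falls, at 59 of 220 (26.8%) for 40 points or more, against 11.8% of other pairs (difference 15.01 points, 9.57 to 21.2) and 13.5% of rising pairs (difference 13.4 points, 7.55 to 19.8). Within 10 kb the 1306 falling pairs did not differ detectably from rising pairs, of which 5.35% had such a region (difference -0.452 points, -2.15 to 1.25). Db/db-only regions were far more numerous, 19951 against 1838, and lay within 50 kb of 68.6% of falling and 71.3% of other pairs (difference -2.74 points, -5.37 to -0.217). Against rising pairs, at 63.5%, the difference was in the other direction (5.07 points, 1.49 to 8.61).

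**Figure D2:**
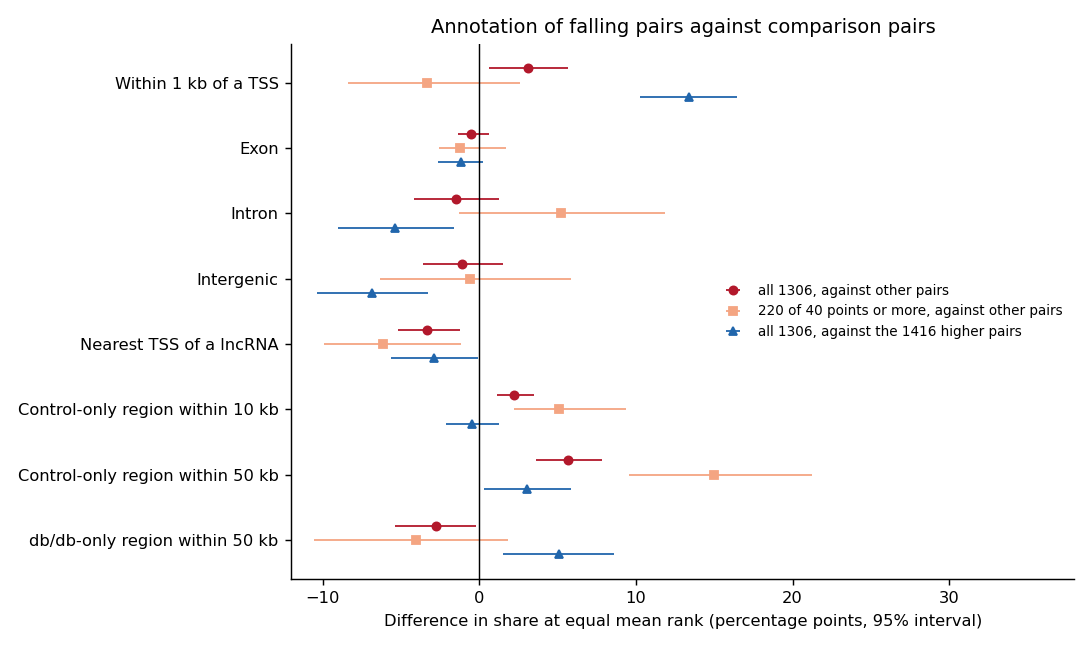
Difference in the share of pairs with each feature (x axis, percentage points, with 95% intervals for counting error) between falling pairs and comparison pairs of equal mean rank, for all 1306 falling pairs (red circles), the 220 large falls (orange squares) and, against the 1416 rising pairs, all 1306 (blue triangles). Control-only regions within 50 kb stand furthest to the right for the large falls, at 15.01 points.

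Sequence was at hand for the exonic and promoter part of windows of 100 bp to each side of the control summit. At least 50 bases were known in 333 falling pairs (25.5%) and 12711 other pairs, and 84.4% of these 333 windows lay within 1 kb of a TSS, so most distal regions were not searched. Rising pairs had 224 windows, of which 69.2% lay within 1 kb of a TSS, with a median GC content of 59.2% against 62.2% in falling pairs. Strings were compared with rising pairs at equal mean rank only, so these differences in make-up remain. Each of 18 strings was searched on both strands, with a control string of its bases in another order or, for the glucocorticoid receptor, at another spacing. Of the 18 strings, 3 were more and 2 less frequent in falling pairs with an interval that excludes 0. Of the 18 control strings none was more and 1 was less frequent. These are 36 comparisons, and the intervals are not adjusted for their number.

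The CRX and OTX string GGATTA stood out most. It was found in 32 of 333 windows of falling pairs (9.61%), against 2.49% of other pairs of equal mean rank (difference 7.12 points, 4.37 to 10.8), 1.27% of rising pairs (difference 8.34 points, 4.60 to 12.1) and 2.69% of all 13044 windows. Its control string GAGTTA was found in 11 windows (3.30%), against 2.88% (difference 0.426 points, -1.09 to 2.97). By size of the fall it was in 17 of 256 windows (6.64%) at 20 to 30 points, in 10 of 40 (25.0%) at 30 to 40 and in 5 of 37 (13.5%, 95% Wilson interval 5.91% to 28.0%) at 40 or more. Of the rising pairs 1 of 175, 1 of 40 and 1 of 9 windows (11.1%, 1.99% to 43.5%) held it in the same classes. In the last class the intervals of falling and rising pairs overlap widely. The median change of the 32 falling pairs with GGATTA, which the rule holds at -20 or below, was -29.5 points. Over all 351 windows with this string it was -1.81 points. The string lay a median of 30 bp from the summit in falling pairs, with 23 of 32 within 50 bp, and 50.5 bp in the 319 other windows that held it.

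**Figure D3:**
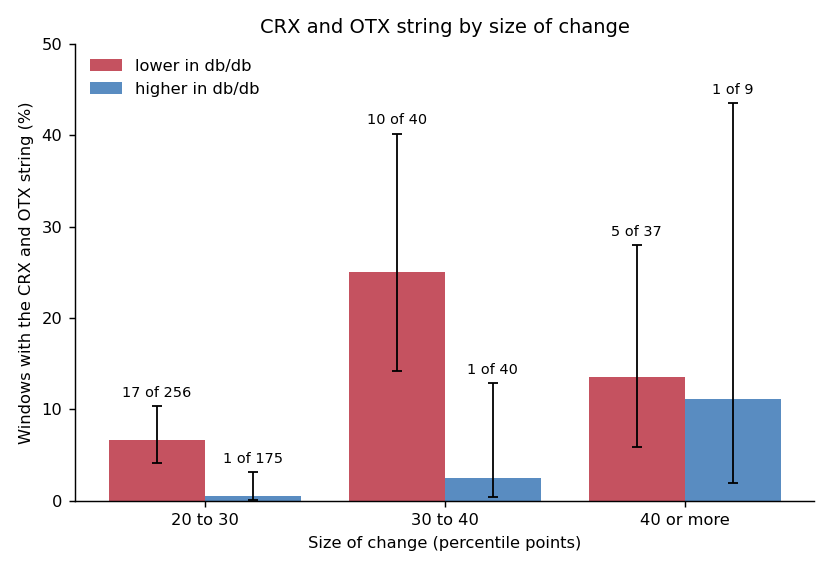
Share of windows with the CRX and OTX string GGATTA (y axis, percent) by size of the change in percentile points (x axis) for falling (red) and rising pairs (blue), with 95% Wilson intervals for counting error and the counts above each bar. Falling pairs reach 25.0% at 30 to 40 points, where 1 of 40 rising pairs held the string.

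Of the 32 falling pairs with this string, 24 lay within 1 kb of a TSS and 3 belonged to genes of the photoreceptor lists, Gnb1, Gucy2e and Casz1. A promoter of Gnb1, the beta subunit of rod transducin, which is also used widely elsewhere, went from percentile 64.7 to 24.7. Another Gnb1 promoter, 1 bp from a TSS, went from 31.4 to 35.5. The string of the falling one lay in an annotated exon. The promoter of Gucy2e went from 42.6 to 6.03 and 1 promoter of Casz1 from 33.4 to 3.77. Further regions within 1 kb of a Casz1 TSS went from 12.7 to 28.3 and from 56.4 to 40.3. The other 29 falling pairs with the string had no list of their own and were not counted by role. Some are known from photoreceptors or retinal neurons. The promoter of Cabp4, which regulates the calcium channel of photoreceptor terminals, went from 55.01 to 14.98. Gjd2, a connexin of retinal neurons, went from 66.3 to 25.8, Mpp4 from 51.3 to 18.5 and Ppef2 from 47.8 to 18.8. The promoters of Lrit2 and Lrit1, neighbouring genes of retinal membrane proteins, went from 42.7 to 12.1 and from 74.1 to 53.9. Others are genes of general functions, among them Ercc2, a DNA repair helicase, Arg2, the mitochondrial arginase, Usp13, a deubiquitinase, and Ahr, the aryl hydrocarbon receptor, with changes of -40.8, -38.7, -34.1 and -27.0 points. These genes, other than Gnb1, Gucy2e and Casz1, are listed because they held the string. Without the genes of the photoreceptor lists the difference from other pairs was 6.52 points (3.84 to 10.2).

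The other 2 strings with a higher share were those of ETS factors and NRF1. The ETS string CCGGAA was found in 66 of 333 windows (19.8%), against 13.3% of other pairs (difference 6.48 points, 2.45 to 11.2) and 3.72% of rising pairs, and in 18.1% of all windows. The median change of these 66 pairs, which the rule holds at -20 or below, was -23.9 points. Over all 2362 windows with the ETS string it was -1.93 points. At a limit of 30 points the difference was -6.70 points (-10.00 to 0.766). The NRF1 string GCGCATGC was found in 16 windows (4.80%), all within 1 kb of a TSS, against 2.60% (difference 2.20 points, 0.328 to 5.08) and 3.36% of all windows. The median change was -22.9 points in these 16, again bounded by the rule, and -2.65 points over all 438 windows with the string. Among large falls the NRF1 string was in 2 of 37 (5.41%), against 2.29% (difference 3.11 points, -0.835 to 15.4). Of the 66 pairs with the ETS string, 1 also had GGATTA.

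The GC box of SP and KLF factors, GGGCGG, was less frequent, in 118 windows (35.4%) against 45.2% (difference -9.78 points, -14.9 to -4.36) and 50.9% of all windows. Its control string GCGGGG was less frequent to a like degree, at 31.5% against 40.2% (difference -8.65 points, -13.6 to -3.32), and the windows had a median GC content of 62.2%, against 65.0% in other pairs. With GC content matched as well, the GC box was at -4.51 points (-9.57 to 0.877). Promoters of large falls were often poor in CpG. Of 23 that could be scored, 11 (47.8%) were CpG-rich, defined as at least 55% GC and an observed to expected CpG ratio of at least 0.6, against 72.6% of other promoters (difference -24.8 points, -43.5 to -5.43). Of rising promoters 40.7% were CpG-rich, against the 47.8% of large falls (difference 7.12 points, -15.1 to 29.3). Over all falling pairs 146 of 215 promoters (67.9%) were CpG-rich, against 38.9% of rising ones (difference 29.0 points, 17.3 to 39.7).

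Over all falling pairs, strings of Müller cell factors were not detectably more frequent. The SOX string ATTGTT was found in 4 windows (1.201%), against 3.29% of other pairs (difference -2.09 points, -2.98 to -0.196). The NFI half-site TTGGCA was in 20 windows (6.01%), against 8.88% of other pairs (difference -2.88 points, -5.10 to 0.289) and 13.7% of rising pairs (difference -7.66 points, -13.1 to -2.75). The site of the glucocorticoid receptor, ACANNNTGT, was in 7 windows (2.10%), against 2.21% (difference -0.106 points, -1.26 to 2.09), so that no difference was detectable in this number of windows. Among large falls it was in 3 of 37 (8.11%), against 2.08% (difference 6.03 points, 0.693 to 19.2), and NFI was in 5 of 37 (13.5%), against 9.16% (difference 4.36 points, -3.32 to 18.9). Over all windows these 3 strings were found in 2.55%, 7.60% and 1.95%.

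Over all falling pairs the intervals of the other 11 strings included 0. The string of paired-like homeodomain factors, TAATTA, was found in 1.32% of all windows, and the half-site of nuclear receptors, AGGTCA, to which ESRRB and NR2E3 bind, in 6.98%. The E-box of neural bHLH factors, CAGATG or CAGCTG, was in 17.5% and that of USF and clock factors, CACGTG, in 6.48%. TEAD (GGAATG) was in 6.72%, AP-1 (TGAGTCA or TGACTCA) in 1.99%, CRE (TGACGTCA) in 2.44% and the RFX half-site (GTTGCC) in 8.16% of all windows. CEBP sites (TTGCGCAA, TTGCACAA or TTGCATAA) were in 0.797%, CTCF sites in 0.276% and MEF2 sites in 0.176%. Among falling pairs the half-site AGGTCA was in 25 windows (7.51%), against 7.27% of other pairs (difference 0.240 points, -2.23 to 3.64), and TEAD in 18 (5.41%), against 7.30% (difference -1.89 points, -3.97 to 1.15). Among large falls, AGGTCA was in 7 of 37 windows (18.9%), against 7.05% (difference 11.9 points, 2.38 to 27.2), the E-box of neural bHLH factors in 12 of 37 (32.4%), against 19.2% (difference 13.3 points, 0.3996 to 29.4), and MEF2 in 1 of 37 (2.70%), against 0.238% (difference 2.46 points, 0.223 to 13.6). Against rising pairs the intervals of these 3 strings and of the glucocorticoid receptor site included 0 for the large falls. Of the 18 control strings 1 was also more frequent among large falls than in other pairs, TGTGCA in 7 of 37 (18.9%) against 7.86% (difference 11.1 points, 1.57 to 26.4).

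**Figure D4:**
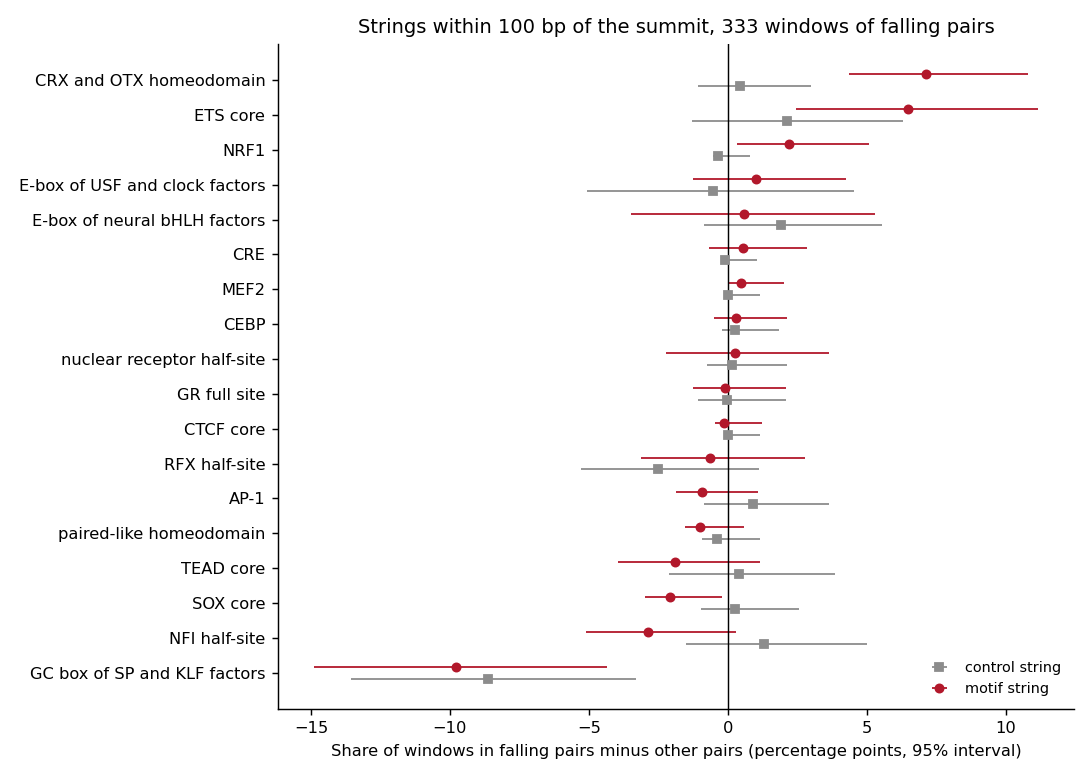
Share of windows with each string in 333 falling pairs minus the share in other pairs of equal mean rank (x axis, percentage points, with 95% intervals for counting error), for 18 motif strings (red) and their control strings (grey). The CRX and OTX string is furthest to the right, at 7.12 points, and the GC box and its control string are both far to the left.

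By gene list, falling pairs were most frequent at photoreceptor genes. Of 50 pairs at genes of rod phototransduction and the outer segment, 12 had fallen (24.0%, 95% Wilson interval 14.3% to 37.4%), and of 65 at photoreceptor transcription factors 11 (16.9%, 9.72% to 27.8%), against 3.06% of all pairs. Esrrb belongs to both lists and gives 4 of the pairs in each. Both lists together held 108 pairs, of which 19 at 15 genes had fallen (17.6%, 11.6% to 25.8%), and 14.7% without Esrrb. The median change of the 108 pairs was -0.26 points, close to the 0.29 points of all pairs, and 55 of the 108 were below 0. As a whole the 108 pairs thus did not shift, although 19 of them stood far lower. The pairs of these genes that did not fall were not summarised on their own. In these lists 29 pairs ranked under percentile 20 in the control list and could not fall by 20 points. Among them were the promoters of Crx, which went from 8.62 to 0.590, and Nrl, which went from 10.3 to 11.4. By the rank of −log10 p, 19 of the 19 falling pairs were again lower by 20 points or more, against 65.8% of all 1306. This rank comes from the same peak rows and is no independent measurement.

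Of 33 pairs within 1 kb of a TSS of these genes 10 had fallen and none had risen by 20 points, and of 75 farther away 9 had fallen and 6 had risen. Over all pairs 3.06% had fallen and 3.32% had risen. Of all 28313 pairs farther than 1 kb from a TSS, 40 in exons, 495 in introns and 390 between genes had fallen. Of the 33, 18 were below 0, with a median change of -4.37 points. Rises by less than 20 points included promoters of Gnat1 (from 6.47 to 21.5), Abca4 (from 20.2 to 33.7 and from 80.6 to 97.2) and Rpgrip1 (from 32.3 to 40.4). Of all 14312 pairs within 1 kb of a TSS, 381 had fallen. Fewer had risen, with 182 by 20 to 30 points, 32 by 30 to 40 and 11 by 40 or more. Besides Rdh12, Gnb1 and Gucy2e, promoters of rod genes fell at Grk1, a kinase of the phototransduction cascade, from 66.7 to 32.1, at Sag, the rod arrestin, from 46.5 to 15.7, and at Slc24a1, the sodium, calcium and potassium exchanger of rods, from 32.0 to 6.30. Tulp1, which acts in transport to the outer segment, had 2 regions lower by 25.9 and 25.8 points and 2 others higher by 24.9 and 22.8 points. Of the transcription factors, Samd7, a repressor that works with Polycomb in rods, fell from 60.8 to 16.6 at a region 2132 bp past its TSS. Prdm1, which sets photoreceptor against bipolar fate, fell from 38.5 to 5.37 in an intron, Rax from 46.5 to 8.63, Nrl, the rod determination factor, from 27.6 to 5.20 at a region 1903 bp before its TSS, and Ankrd33, an inhibitor of CRX, from 34.2 to 9.68 at its promoter. Rises of 20 points or more were found at Casz1, Cngb1, Crx, Pde6b and Tulp1. They made up 6 of the 108 pairs of both lists and 4 of the 50 of the rod list, against 3.32% of all pairs. A control-only region lay within 50 kb of 10 of the 19 falling pairs, against 17.5% of all falling pairs and 11.9% of other pairs of equal mean rank. Both falling regions of Tulp1 are among the 10 and may share 1 such region. The share among the pairs of these genes that did not fall was not compared. Whether the sorted cells of the lists held unequal numbers of photoreceptors was not tested.

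**Figure D5:**
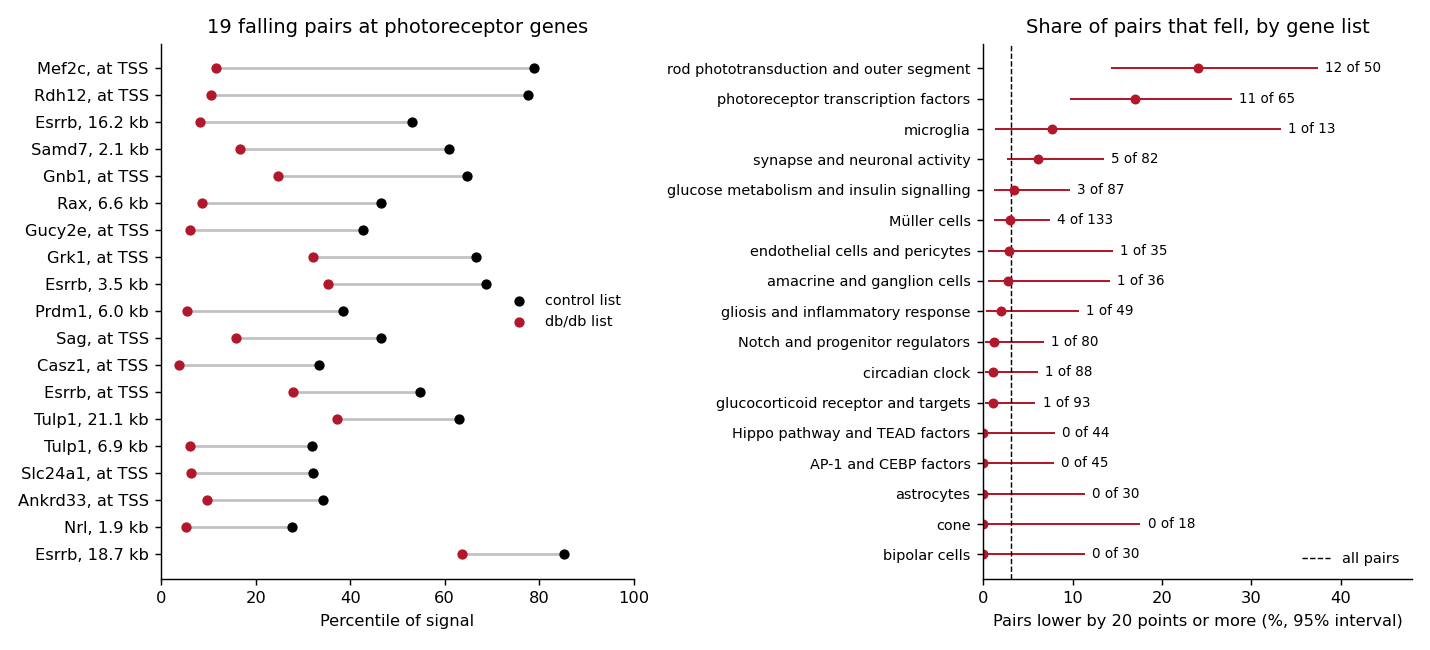
The left plot shows the percentile of the signal (x axis) in the control list (black) and the db/db list (red) for the 19 falling pairs at photoreceptor genes, named with their distance to the TSS, and the right plot the share of pairs that fell by 20 points or more in each of 17 gene lists (x axis, percent, 95% Wilson intervals, with counts), with all pairs, 3.06%, as a dashed line. The rod list, at 12 of 50, and the factor list, at 11 of 65, lie above the line with their whole intervals.

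At genes of other retinal neurons the share of falling pairs could not be told from the 3.06% of all pairs. At cone genes 0 of 18 pairs had fallen (interval up to 17.6%) and at bipolar cell genes 0 of 30 (up to 11.4%), with 3 higher and a median change of 4.97 points. At genes of synapses and neuronal activity 5 of 82 had fallen (6.10%, 2.63% to 13.5%) and 5 had risen. Those that fell were the promoters of Rims2 (-60.6 points), Cacna2d4, the calcium channel subunit of photoreceptor terminals (-43.0), Cplx4, the complexin of ribbon synapses (-41.6), Bsn (-30.7) and Slc17a7, the vesicular glutamate transporter (-21.2). The interval of this list includes the share of all pairs.

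At Müller cell genes 4 of 133 pairs had fallen (3.01%, 1.18% to 7.48%), near the 3.06% of all pairs, with a median change of 0.16 points. They lay at Rax, which is also in the photoreceptor factor list, Cp, the copper carrier ceruloplasmin, Id1, an inhibitor of bHLH factors, and Nfia, with changes of -37.9, -37.1, -20.9 and -26.7 points. All 34 genes of this list had a pair. Of 93 pairs at the glucocorticoid receptor and its targets 1 had fallen, at Sgk1, a kinase that regulates ion transport, from 69.3 to 21.8 at a region 21481 bp past its TSS. Notch and progenitor regulators had 1 of 80 (Rbpj, the effector of Notch), gliosis and inflammatory genes 1 of 49 (Icam1), circadian clock genes 1 of 88 (Rora), microglial genes 1 of 13 (Cx3cr1), endothelial and pericyte genes 1 of 35 (Flt1) and amacrine and ganglion cell genes 1 of 36 (Ebf3). Glucose and insulin genes had 3 of 87, at Hk1, the hexokinase of glycolysis, from 52.5 to 14.6, and 2 at Akt2. AP-1 and CEBP factors (45 pairs), Hippo and TEAD genes (44) and astrocyte genes (30) had none.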

How the data were processed

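ATAC-seq peak lists of purified Müller cells were used, 1 per genotype, attached to replicate 1 of control and db/db mice. The ATAC-seq samples of replicate 2 and the RNA-seq samples were not analysed here. The authors deposited narrowPeak rows with a score in column 5, a fold enrichment (called signal here, a ratio) in column 7, the −log10 p in column 8 and the −log10 q in column 9. The peak caller, its threshold and whether replicates were pooled are not given in the sources used here. Positions were read as mm10, the build in the submitters' processing notes. The csaw analysis of reads named in the study's methods was not repeated.

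From these lists, overlapping rows were merged on chromosomes 1 to 19 with the values of the row of highest signal, which turned 79824 control and 107634 db/db rows into 45198 and 63598 regions. Regions that overlapped by at least 1 bp were shared (43360 and 43647). Signal was ranked over shared regions, so that a uniform difference in strength between the lists drops out. Shares were compared with those of other pairs in 10 bins of mean rank. The 95% intervals cover counting error only, and depth is unknown. GENCODE M21 gave the genes, exons and TSS, and sequence came from its 134417 transcripts and 31396 RefSeq promoters, 128458256 bases with no conflict, in place of a genome. The promoters were added after the lists had been seen. Python 3.11.15, numpy 2.4.6, scipy 1.17.1, pandas 2.3.3 and matplotlib 3.10.9 were used. Ranking, matching and intervals were tested on simulated data.

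The falling pairs, gene lists and strings were chosen with earlier results of these data known. Named were the 20 largest falls, the 10 coding genes with most falling pairs, the 10 coding promoters with the largest fall, list genes with a falling pair, and the 3 pairs on each side of the limit. Genes with GGATTA other than these were added after their values were seen. Alternatives changed the limit, the ranked value, the pairing, the comparison pairs, the summit, the window and the gene assignment.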

Additional observations from a re-analysis of the deposited data

How the results depend on the processing

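Of 76 values under an alternative, 54 stayed within the 95% interval of the main value (for the number of pairs, within 1.5 times), 19 moved outside it and 3 changed sign against a main interval that excludes 0. Of the 76, 18 were chosen after seeing the data. The 1306 falling pairs became 2615 at a limit of 15 points, 444 at 30 points and 357 with ranks over all regions of a list, which puts the db/db-only regions into the rank; under the other 5 alternatives they numbered 1205 to 1390. The share within 1 kb of a TSS, 3.10 points above other pairs, was at -0.898 with a limit of 30 points, -4.54 without matching on rank and 15.4 with the rank of −log10 p; against pairs that changed by less than 5 points it was 1.57, with an interval that includes 0. The share in introns was at 2.16, 2.60 and -7.01 points under the same 3 settings. The excess of control-only regions within 10 kb stayed above 0 with its interval under all 8 alternatives, at 1.12 points for a limit of 15 points, 3.77 for 30 points, 6.45 with the rank of −log10 p and 5.64 within 50 kb. The CRX and OTX string stayed above 0 with its interval under all 13, at 3.81 points for a limit of 15 points and 16.8 for 30 points; the GC match gave 6.86 and windows of 250 bp to each side 6.17. The ETS string was at -6.70 points with a limit of 30 points. At photoreceptor genes 10.2% of pairs fell by 30 points, against 1.04% of all pairs. By 20 points of the rank of −log10 p it was 25.9%, against 3.05% of all pairs. With pairs assigned by gene body with 5 kb flanks, 17 of 113 pairs at these genes fell by 20 points. What caused these shifts was not tested. No paired analysis was possible because 1 list per genotype was analysed and no value rests on replicates. About 3 in 4 falling pairs had no sequence to search, and no value has a replicate check.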
